A study of Mus musculus with 18 samples.

Results

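The genes described here encode 7 secreted or membrane-bound regulators of osteoclasts, followed in bone lineage cells of mice with a conditional knockout of the parathyroid hormone receptor and of control mice. The members were fixed by name: Tnfsf11, Tnfrsf11b, Csf1, Il34, Il6, Ccl2 and Sema3a. Gene identifiers in the count files were mapped to mouse symbols, which found all 7 members among 54446 genes, and all 7 passed the filter on low counts. The knockout mice carried a conditional deletion of PTH1R in osteoprogenitors, and the control mice are labelled wild type. All mice were at postnatal day 21, and all cells were derived from cells that had expressed osterix, which marks cells on the way to becoming osteoblasts. From each genotype, 3 subsets were sorted: bone marrow stromal cells that were GFP- and Tm+, bone cells that were GFP- and Tm+, and bone cells that were GFP+. They are called marrow, GFP-negative bone and GFP-positive bone here. The labels define neither Tm nor the transgene that carries GFP, and they give no Cre driver and no number of animals. Each of the 6 groups held 3 libraries, 18 in all. The labels do not tie a library to an animal, so the p-values speak only for the spread among these samples, which may be technical.

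Osteoclasts resorb bone and arise from macrophage-lineage precursors under the control of signals from bone-forming and stromal cells. RANKL, encoded by Tnfsf11, binds the receptor RANK on those precursors and drives their differentiation, and osteoprotegerin, encoded by Tnfrsf11b, is a soluble decoy that captures RANKL. CSF-1 and IL-34 both bind the receptor CSF1R and keep the precursors alive, IL-6 and the chemokine CCL2 are inflammatory signals that favour osteoclast formation or recruitment, and semaphorin 3A restrains it. Parathyroid hormone, acting through PTH1R, is known to raise Tnfsf11 and Il6 and to lower Tnfrsf11b in osteoblasts.

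Reference promoters show what these genes carry just upstream of their start sites. RefSeq sequences of build GRCm38.p6 were matched for 4 of the 7 genes, and the 250 bases before the start are printed for the 3 whose RefSeq start is also the start of the gene model in the annotation: Tnfsf11, a known target of the hormone, Csf1, the member with the highest level in marrow, and Il6, whose window is the one with matches to several patterns. Capitals mark matches on either strand to 5 patterns: the CREB half-site TGACG, the AP-1 site TGANTCA, the C/EBP pattern TTGNGCAA, the NF-kB pattern (GGG, any 5 bases, then CC) and the RUNX pattern TGTGGT.
Tnfsf11, chr14:78308044-78308293, minus strand: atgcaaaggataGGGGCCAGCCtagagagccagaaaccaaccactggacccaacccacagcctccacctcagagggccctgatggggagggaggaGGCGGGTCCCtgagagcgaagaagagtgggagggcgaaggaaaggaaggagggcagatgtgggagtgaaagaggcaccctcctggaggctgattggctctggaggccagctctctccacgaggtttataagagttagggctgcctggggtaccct
Csf1, chr3:107760470-107760719, minus strand: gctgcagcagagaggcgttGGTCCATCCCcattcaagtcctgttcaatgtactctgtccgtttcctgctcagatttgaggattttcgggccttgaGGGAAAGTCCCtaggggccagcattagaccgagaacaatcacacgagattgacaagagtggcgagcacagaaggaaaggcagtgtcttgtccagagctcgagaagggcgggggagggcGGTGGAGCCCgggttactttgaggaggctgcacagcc
Il6, chr5:30012864-30013113, plus strand: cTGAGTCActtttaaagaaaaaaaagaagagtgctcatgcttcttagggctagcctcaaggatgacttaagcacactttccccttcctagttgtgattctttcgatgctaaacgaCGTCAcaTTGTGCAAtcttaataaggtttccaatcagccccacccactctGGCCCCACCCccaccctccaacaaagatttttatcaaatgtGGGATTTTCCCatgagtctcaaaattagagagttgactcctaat
The Il6 window held 1 AP-1, 1 CREB half-site, 1 C/EBP and 3 NF-kB matches, of which 2 NF-kB matches overlap. The Csf1 window held 4 NF-kB matches, 2 of them overlapping, and the Tnfsf11 window held 2. Of 32851 promoter windows of this length, 45.8% held the NF-kB pattern, 17.8% the CREB half-site, 14.0% the RUNX pattern, 6.75% the AP-1 pattern and 2.61% the C/EBP pattern. These are descriptions of the letters in the windows and no measure of binding.

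Total counts ran from 16443595 to 27160257 per library. A count of 0 allows up to 0.0966 to 0.216 CPM (3 counts of each total after TMM scaling, counting error only). CPM is the count relative to the library's total after TMM scaling. The summed markers are the exception: their CPM is relative to the library's total without TMM scaling. Sums and values of single genes are therefore not on the same scale. Pth1r, the targeted gene, was counted over all its exons, and within each subset the knockout and control libraries did not overlap, with the knockout lower. The log2 fold changes of knockout over control were -0.70 ± 0.13 in marrow, -0.56 ± 0.13 in GFP-negative bone and -0.52 ± 0.13 in GFP-positive bone (SE, n = 3 against 3). It was still at 318 to 372 CPM in knockout marrow, 1030 to 1397 CPM in knockout GFP-negative bone and 2724 to 4036 CPM in knockout GFP-positive bone. Reads from exons outside the deleted part are included. After the length correction described further on, the call held in marrow (-0.45 ± 0.12, edgeR adjusted p = 0.00556) and ended in both bone subsets (-0.24 and -0.19, edgeR adjusted p = 0.123 and 0.197). Of the markers of marrow stroma and of osteoblasts, 8 of 8 and 8 of 8 averaged at least 1 CPM in each group, but GFP-positive bone carried more cartilage than bone-forming transcripts: summed chondrocyte markers were 254000 to 269000 CPM in its knockout and 115000 to 139000 CPM in its control libraries, against osteoblast marker sums of 39000 to 52100 CPM in the knockout and 35200 to 58600 CPM in the control. Markers of 12 macrophage genes summed to 58.6 CPM or less in any library, and 10 lymphoid markers to 4.73 CPM or less. Of the 12 osteoclast markers, 6 averaged at least 1 CPM in each group. Tnfrsf11a, which encodes RANK, averaged at most 0.22 CPM, and the list summed to 368 to 788 CPM in knockout and 738 to 926 CPM in control marrow, 543 to 607 CPM in knockout and 586 to 624 CPM in control GFP-negative bone, and 1030 to 1220 CPM in knockout and 488 to 518 CPM in control GFP-positive bone. The sum in GFP-positive bone rested largely on Nfatc1, at 1190 ± 91.1 CPM in the knockout and 260 ± 28.7 CPM in the control. There Acp5 (5.49 and 13.9 CPM) and Ctsk (97.9 and 130 CPM) averaged lower in the knockout than in the control. Mmp9 (56.2 and 39.3 CPM), Itgb3 (7.4 and 1.56 CPM) and Clcn7 (25.1 and 22.8 CPM) averaged higher in the knockout. In bulk samples fewer cells of a type and less RNA per cell cannot be told apart.

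**Figure D1:**
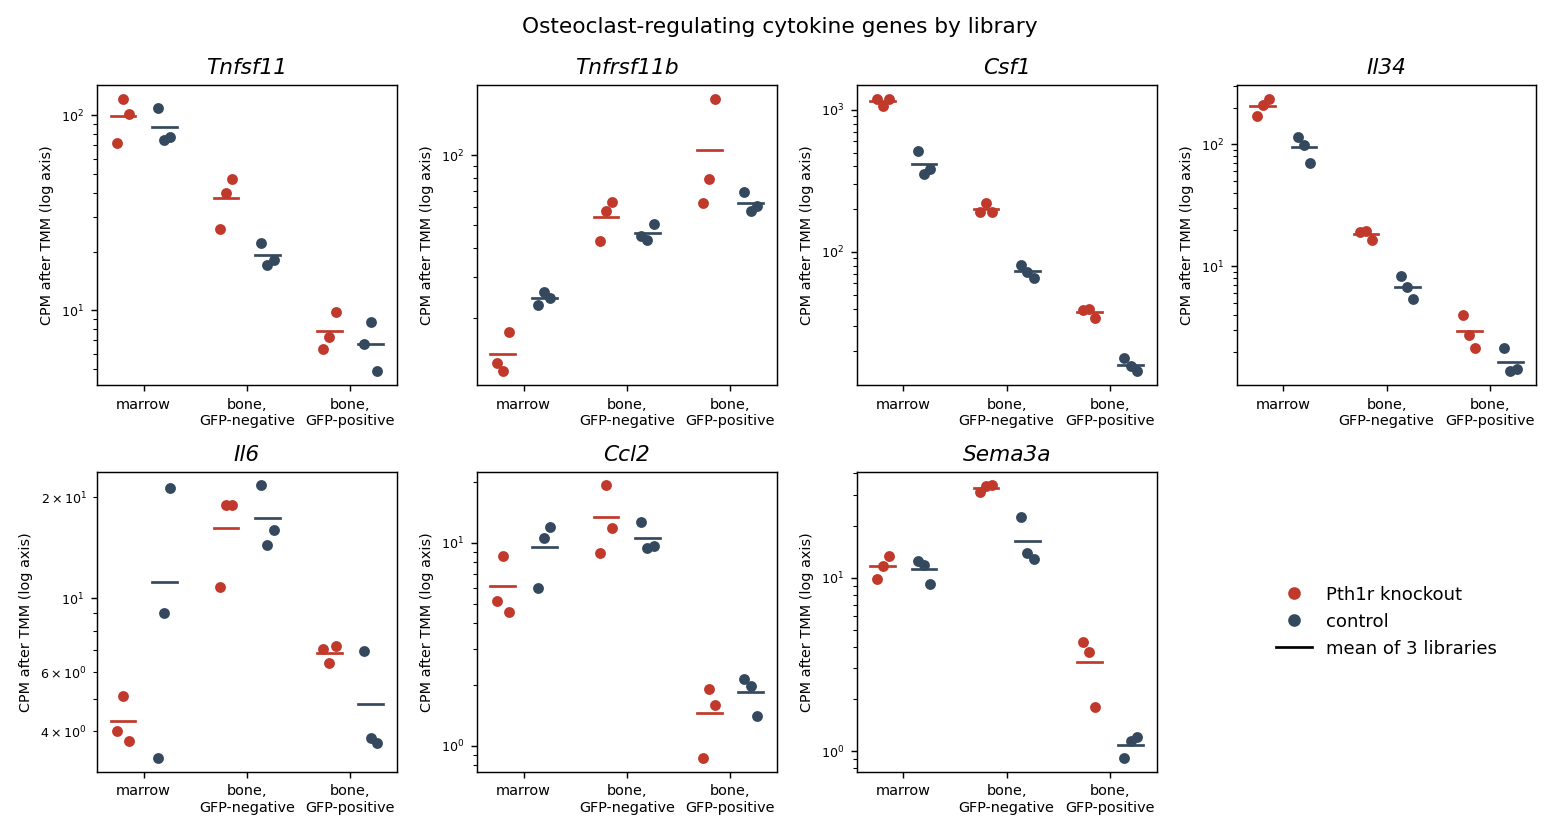
CPM after TMM scaling (log axis) for the 7 genes in every library, with knockout libraries in red to the left of control libraries in dark blue and a bar at the mean of 3 libraries. Csf1 and Il34 are higher in the knockout in all 3 subsets on average, and both are at their highest in marrow.

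Levels differed between genes and between subsets before any effect of genotype. Per transcript length, as TPM (counts divided by length and scaled to a common total), Csf1 was the most abundant member in both genotypes of marrow, at 1061 ± 94.7 TPM in the knockout and 328 ± 77.9 TPM in the control (SD, n = 3 each). In marrow Il34 reached 509 ± 82.0 TPM in the knockout and 198 ± 47.2 TPM in the control, and Tnfsf11 reached 213 ± 49.6 TPM in the knockout and 161 ± 40.4 TPM in the control. In GFP-positive bone Tnfrsf11b led instead, with 129 ± 77.2 TPM in the knockout and 79.5 ± 8.48 TPM in the control, and each of the other members averaged under 25 TPM there. Sema3a was the least abundant member in each of the 6 groups per length, from 8.38 ± 0.82 TPM in knockout GFP-negative bone down to 0.28 ± 0.04 TPM in control GFP-positive bone.

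Among the control subsets, levels of most members were highest in marrow or GFP-negative bone. GFP-positive bone held less of 6 members than marrow, with Tnfrsf11b the exception. Csf1 was 26.1-fold lower, at 16.1 ± 1.81 CPM in GFP-positive bone and 419.6 ± 86.4 CPM in marrow (SD, n = 3 each). Il34 was 56.2-fold lower, at 1.66 ± 0.44 CPM in GFP-positive bone and 94.5 ± 22.2 CPM in marrow, and Tnfsf11 was 12.8-fold lower, at 6.75 ± 1.93 CPM in GFP-positive bone and 87.3 ± 19.3 CPM in marrow. The counter-regulator ran the other way: Tnfrsf11b was 2.56-fold higher, at 62.4 ± 6.04 CPM in GFP-positive bone and 24.4 ± 1.58 CPM in marrow. Among the 7 members 7 passed the adjusted threshold of 0.05 (1 higher, 6 lower), where 62.8% of all 15516 genes tested did (29.8% higher, 33% lower). The edgeR quasi-likelihood test with Benjamini-Hochberg adjustment gave adjusted p = 2.43e-15 for Csf1, 1.54e-13 for Il34, 1.82e-09 for Tnfsf11 and 6.27e-04 for Tnfrsf11b. Sema3a (10.4-fold), Ccl2 (5.05-fold) and Il6 (2.24-fold) were lower too. The Il6 call was lost in 3 of the 6 fits that left out 1 library, and without the third control marrow library its log2 fold change was -0.32 with an edgeR adjusted p of 0.481.

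GFP-negative bone stood between the other control subsets for Tnfsf11, Csf1 and Il34. Compared with marrow, Tnfsf11 was 4.57-fold lower, at 19.2 ± 2.73 CPM in GFP-negative bone and 87.3 ± 19.3 CPM in marrow, Csf1 was 5.76-fold lower and Il34 was 13.9-fold lower. Tnfrsf11b was 1.91-fold higher, at 46.4 ± 3.84 CPM in GFP-negative bone and 24.4 ± 1.58 CPM in marrow (edgeR adjusted p = 0.018). These were 4 calls among 7 members (1 higher, 3 lower), where 39.3% of all genes tested were called (21.1% higher, 18.2% lower). The Tnfrsf11b call was lost in 2 of the 6 fits that left out 1 library (highest edgeR adjusted p = 0.0655). Sema3a had 16.4 ± 5.32 CPM in GFP-negative bone and 11.2 ± 1.77 CPM in marrow and missed the threshold narrowly (log2 0.54 ± 0.21, edgeR adjusted p = 0.0502). Same-number control libraries of these subsets deviated together, and with the number as a block the call was made, at log2 0.53 and an edgeR adjusted p of 0.0393. The levels of Il6 and Ccl2 overlapped between these subsets, with log2 differences of 0.66 (95% interval -0.25 to 1.57) and 0.16 (-0.46 to 0.79).

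GFP-positive bone against GFP-negative bone gave 6 calls among the 7 members, all lower, where 40% of all genes tested were called (18.2% higher, 21.8% lower). The drop was steepest for Sema3a, 15.1-fold, at 0.91, 1.14 and 1.20 CPM in the GFP-positive libraries and 22.5, 13.9 and 12.8 CPM in the GFP-negative libraries (edgeR adjusted p = 4.09e-09). Tnfrsf11b did not pass the test (log2 0.43 ± 0.28, edgeR adjusted p = 0.244), although its 3 libraries of GFP-positive bone, 69.2, 57.6 and 60.4 CPM, all lay above those of GFP-negative bone, 45.0, 43.5 and 50.8 CPM. With only the libraries compared in the fit it was called, at the same log2 0.43 (edgeR adjusted p = 0.00437).

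The knockout was then compared with the control within each subset, to ask how these signals differ between the labelled genotypes. Of the 7 members, 4 were called in marrow (2 higher and 2 lower), 4 in GFP-negative bone (all higher) and 4 in GFP-positive bone (all higher). Of all genes tested, 47.9% were called in marrow (23.1% higher, 24.8% lower), 47.1% in GFP-negative bone (21.5% higher, 25.7% lower) and 51.3% in GFP-positive bone (26% higher, 25.3% lower), so the members' share of 4 in 7 is near the background. The median log2 fold change of the members was 0.04 in marrow, 0.97 in GFP-negative bone and 0.74 in GFP-positive bone, beside -0.04, -0.07 and 0.03 over all genes. Csf1 and Il34 were the members called in all 3 subsets.

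**Figure D2:**
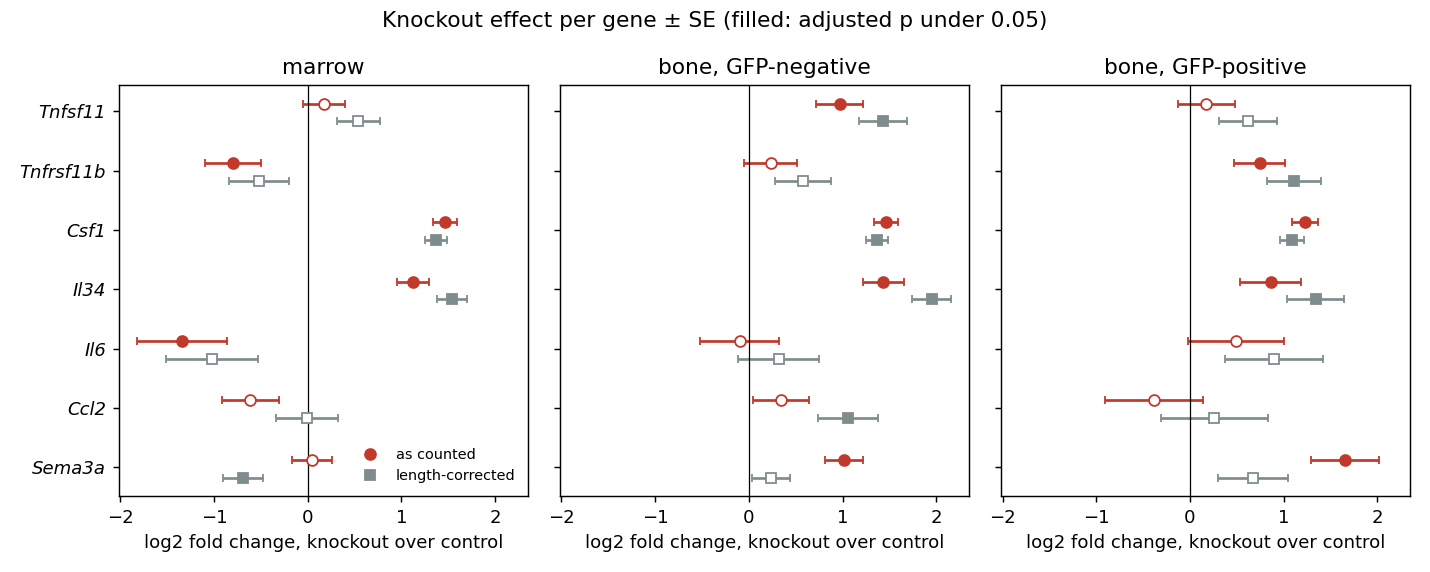
Log2 fold change of knockout over control with its SE for each gene in each subset, as counted (red circles) and after the length correction (grey squares), filled where the adjusted p is under 0.05. Csf1 and Il34 lie to the right of 0 and are filled under both treatments in all 3 subsets, while Sema3a moves left with the correction.

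The knockout effect followed gene length in all 3 subsets. Merged exon length and log2 fold change had a Spearman correlation across 15516 genes of 0.37 in marrow, 0.40 in GFP-negative bone and 0.38 in GFP-positive bone, a description across genes that are not independent. The members span most of the range, from 1138 bases for Ccl2, with 7.84% of genes shorter, to 13868 bases for Sema3a, with 96.9% shorter. Csf1 has 5281 bases, Tnfrsf11b 2818, Il6 2428, Tnfsf11 2236 and Il34 1959. A second fit removed each library's trend on length, and its values are called length-corrected.

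**Figure D3:**
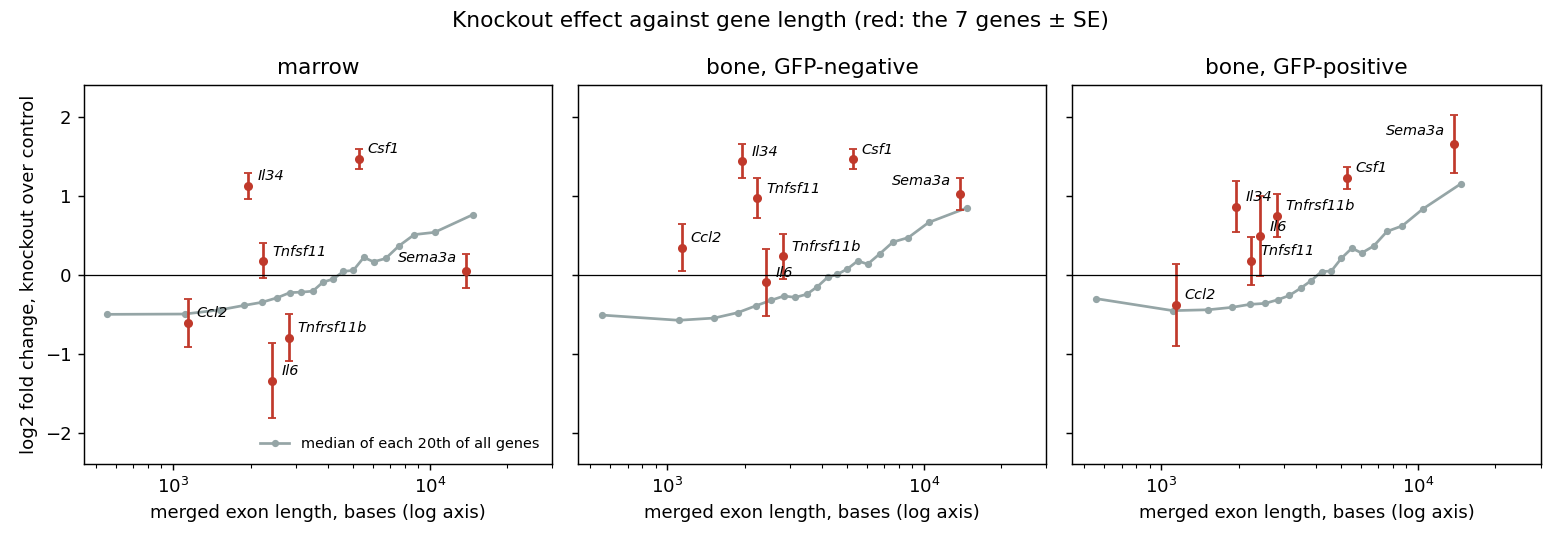
Log2 fold change of knockout over control against merged exon length (log axis) in each subset: grey points join the medians of 20 length bins of all genes, and red points with SE bars are the 7 members. The grey line climbs with length in each subset, Csf1 and Il34 lie above it in all 3, and Sema3a lies below it in marrow and near it in GFP-negative bone.

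Among the osteoclast-forming signals, Tnfsf11 (ENSMUSG00000022015.8; mm10 chromosome 14, 78277445 to 78308043, minus strand), the RANKL gene, rose in GFP-negative bone. Its 3 knockout libraries held 26.2, 39.8 and 46.9 CPM, against 22.3, 17.1 and 18.1 CPM in the 3 control libraries. Every knockout library lay above every control library, a 1.96-fold higher level (log2 0.97 ± 0.25, edgeR quasi-likelihood test, Benjamini-Hochberg adjusted p = 0.00376). After length correction the log2 fold change was 1.43 ± 0.26 (edgeR adjusted p = 2.77e-04). Summed stroma markers were 3370 to 3730 CPM in knockout and 1220 to 1660 CPM in control GFP-negative bone, and their part in the rise was not tested. In marrow, where Tnfsf11 is most abundant, the knockout libraries held 72.3, 121.8 and 101.9 CPM and the control libraries 109.6, 75.0 and 77.4 CPM. The groups overlapped, and the log2 difference of 0.17 has a 95% interval of -0.29 to 0.64 (edgeR adjusted p = 0.552), with a length-corrected value of 0.54 (edgeR adjusted p = 0.067). GFP-positive bone held 6.35, 7.32 and 9.85 CPM in the knockout and 6.68, 8.72 and 4.86 CPM in the control, again overlapping, with a log2 difference of 0.17 (95% interval -0.46 to 0.81) and a length-corrected value of 0.62 (edgeR adjusted p = 0.115). The knockout effect in GFP-negative bone minus that in marrow was 0.80 ± 0.33 on the log2 scale and was not called in this fit (edgeR adjusted p = 0.169). In order of mean level, the 6 groups ran from control and knockout GFP-positive bone, through control and then knockout GFP-negative bone, to control and knockout marrow. Neighbours in that order overlapped only between the genotypes of GFP-positive bone and of marrow.

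Tnfrsf11b (ENSMUSG00000063727.3; mm10 chromosome 15, 54250619 to 54278484, minus strand), the osteoprotegerin gene, fell in marrow and rose in GFP-positive bone, though both calls are fragile. In marrow the knockout libraries held 12.9, 11.9 and 17.6 CPM, against 22.8, 25.9 and 24.4 CPM in the control libraries. The groups did not overlap, and the level was 1.74-fold lower (log2 -0.80 ± 0.30, edgeR adjusted p = 0.0398). The call was lost with the length correction (-0.52 ± 0.32, edgeR adjusted p = 0.204) and in 5 of the 6 fits that left out 1 library, with adjusted p from 0.0352 to 0.128 over the 6 and log2 values from -0.97 to -0.69. In GFP-positive bone the knockout libraries held 62.3, 79.1 and 174.6 CPM and the control libraries 69.2, 57.6 and 60.4 CPM. The third knockout library stood far above the rest and the groups overlapped. The fitted log2 fold change was 0.74 ± 0.27 (edgeR adjusted p = 0.0322), and it was 0.18 ± 0.16 (edgeR adjusted p = 0.388) without that library. It was also lost without the second or the third control library (edgeR adjusted p = 0.0991 and 0.0738) and with only the libraries compared in the fit (0.75, edgeR adjusted p = 0.146). The length-corrected value was 1.11 ± 0.29 (edgeR adjusted p = 0.00542). Osteoblast marker sums were 70300 to 93400 CPM in knockout and 150000 to 203000 CPM in control marrow. Col1a1 made up most of these sums, at 59000 ± 9580 CPM in the knockout and 141000 ± 26900 CPM in the control. Runx2 averaged 46.1 CPM in the knockout and 42.2 CPM in the control, and the other osteoblast markers averaged lower in the knockout. Cartilage marker sums were higher in the knockout of GFP-positive bone. The part of these markers in the Tnfrsf11b results was not tested. GFP-negative bone held 43.0, 57.9 and 62.8 CPM in the knockout and 45.0, 43.5 and 50.8 CPM in the control, with a log2 difference of 0.23 (95% interval -0.37 to 0.83). The knockout effect differed between GFP-positive bone and marrow by 1.54 ± 0.41 on the log2 scale, as an interaction (edgeR adjusted p = 0.0155). Leaving out any 1 library kept that call, with 0.98 (edgeR adjusted p = 0.00761) without the third knockout library of GFP-positive bone, the length correction kept it (1.63 ± 0.43, edgeR adjusted p = 0.015), and fits on library totals alone or without the count filter did not (edgeR adjusted p = 0.068 and 0.0699).

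The balance of RANKL to its decoy was taken as the ratio of Tnfsf11 to Tnfrsf11b per length within each library, which needs no scaling between libraries. In marrow the ratio was 7.03, 12.9 and 7.3 in the knockout libraries, against 6.06, 3.64 and 4 in the control libraries. Every knockout library lay above every control library, with geometric means of 8.72 and 4.45, a difference of 0.97 on the log2 scale. In GFP-negative bone the ratio was 0.767, 0.865 and 0.941 in the knockout and 0.624, 0.495 and 0.451 in the control, again without overlap, with a difference of 0.72. In GFP-positive bone it was 0.129, 0.117 and 0.0714 in the knockout and 0.122, 0.191 and 0.102 in the control, overlapping, with a difference of -0.38. The exact two-sided permutation test gave p = 0.1 in marrow, 0.1 in GFP-negative bone and 0.5 in GFP-positive bone, and 0.1 is the smallest p that 3 libraries against 3 can give. Between the control subsets the ratio was 33.4-fold lower in GFP-positive bone than in marrow and 8.58-fold lower in GFP-negative bone than in marrow, without overlap in either case (exact permutation p = 0.1 each, the smallest possible).

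**Figure D4:**
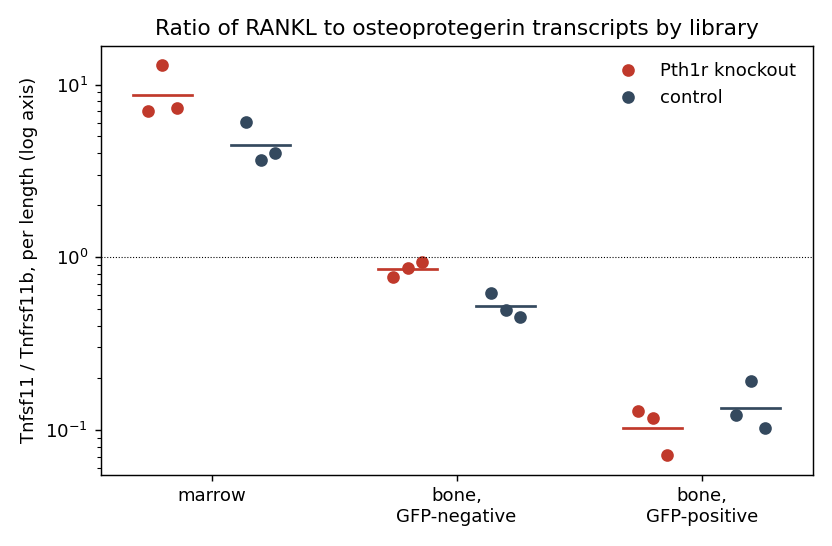
Ratio of Tnfsf11 to Tnfrsf11b counts per transcript length in each library (log axis), knockout in red to the left of control in dark blue, with a bar at the geometric mean of 3 libraries and a dotted line at equal levels. Marrow lies above the dotted line, both bone subsets lie below it, and the genotypes overlap in GFP-positive bone alone.

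Of the ligands of CSF1R, Csf1 (ENSMUSG00000014599.10; mm10 chromosome 3, 107741048 to 107760469, minus strand) rose in all 3 subsets. In marrow its knockout libraries held 1199, 1070 and 1203 CPM, against 518, 356 and 385 CPM in control libraries, a 2.76-fold higher level (log2 1.46 ± 0.13, edgeR adjusted p = 4.14e-08). In GFP-negative bone they held 192, 221 and 189.8 CPM, against 80.8, 72.1 and 65.8 CPM in control libraries, also 2.76-fold higher (1.46 ± 0.13, edgeR adjusted p = 5.25e-08). In GFP-positive bone they held 39.0, 39.4 and 34.2 CPM, against 18, 15.7 and 14.4 CPM in control libraries, 2.34-fold higher (1.23 ± 0.14, edgeR adjusted p = 6.97e-07). The genotypes did not overlap in any subset, and the highest adjusted p over 14 alternative fits per subset was 2.61e-04. Length-corrected values were 1.37, 1.37 and 1.09 in the same order, and the median among the 500 genes nearest in length was 0.14, 0.13 and 0.25 (log2). The knockout effect in GFP-negative bone minus that in marrow was 0.00 on the log2 scale (95% interval -0.46 to 0.46), and that in GFP-positive bone minus marrow was -0.24 (-0.63 to 0.15). With library totals alone this last difference was -0.75 and was called (edgeR adjusted p = 0.0129).

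Il34 (ENSMUSG00000031750.15; mm10 chromosome 8, 110741829 to 110805924, minus strand), the second ligand of CSF1R, moved with Csf1. Its marrow libraries held 171.9, 209.9 and 237 CPM in the knockout and 114.0, 99.2 and 70.4 CPM in the control, 2.18-fold higher (log2 1.12 ± 0.17, edgeR adjusted p = 2.11e-05). Its GFP-negative bone libraries held 19.1, 19.6 and 16.3 CPM in the knockout and 8.28, 6.76 and 5.39 CPM in the control, 2.70-fold higher (1.44 ± 0.22, edgeR adjusted p = 2.45e-05). Neither of these pairs of groups overlapped, and the length-corrected values were 1.54 and 1.95. In GFP-positive bone the gene was sparse, with 3.97, 2.76 and 2.16 CPM in the knockout and 2.17, 1.38 and 1.44 CPM in the control. These groups overlapped by the lowest knockout library, and the call (0.86 ± 0.32, edgeR adjusted p = 0.0324) was lost when the first knockout, the second control or the third control library was left out (edgeR adjusted p = 0.188, 0.105 and 0.073), and with library totals alone (0.47, edgeR adjusted p = 0.256). The length-corrected value was 1.34 (edgeR adjusted p = 0.00147). The gene shares 97 exon bases with antisense-strand models, and neither the labels nor the headers used here say whether counting took strand into account.

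Marrow stroma and fat cell markers moved with these ligands. The summed stroma markers were 49100 to 60800 CPM in knockout marrow and 26100 to 38600 CPM in control marrow, 3370 to 3730 CPM in knockout and 1220 to 1660 CPM in control GFP-negative bone, and 617 to 764 CPM in knockout and 365 to 405 CPM in control GFP-positive bone. The fat cell markers summed to 8260 to 11800 CPM in knockout and 3000 to 3920 CPM in control marrow. In each subset given, the knockout and control ranges of these sums did not overlap, and their part in the rise of Csf1 and Il34 was not tested. Over the 18 libraries, the genes most like Csf1 by Pearson correlation of log2(CPM + 1) among 9514 genes were Heph (r = 0.996), Lepr (0.995), the leptin receptor that marks marrow stroma, and Gas6 (0.994). Those most like Il34 were Cnnm1 (0.993), Bmp4 (0.992) and Enpp4 (0.992). Csf1 and Il34 themselves correlated at 0.98, Tnfsf11 and Csf1 at 0.96, and Tnfsf11 and Tnfrsf11b at -0.81. These libraries share subset and genotype, so the values describe the pattern across 6 groups and no more.

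Of the inflammatory signals, Il6 (ENSMUSG00000025746.11; mm10 chromosome 5, 30013114 to 30019981, plus strand) was called in marrow alone. The knockout libraries held 4.02, 5.11 and 3.75 CPM, and the control libraries held 3.33, 9.02 and 21.2 CPM. The groups overlapped, since both the lowest and the highest value came from a control library. The fitted log2 fold change of -1.34 ± 0.48 (edgeR adjusted p = 0.0292) was -0.49 ± 0.38 (edgeR adjusted p = 0.317) without the third control library. The call was also lost without the first or the third knockout library (edgeR adjusted p = 0.0834 and 0.082), and the length-corrected value was -1.02 ± 0.49 (edgeR adjusted p = 0.107). In GFP-negative bone Il6 was at 10.8, 18.9 and 19.0 CPM in the knockout and 21.7, 14.4 and 15.9 CPM in the control (log2 -0.10, 95% interval -0.99 to 0.80). In GFP-positive bone it was at 7.03, 6.4 and 7.19 CPM in the knockout and at 6.95, 3.83 and 3.71 CPM in the control (log2 0.49, 95% interval -0.60 to 1.57). The genotypes overlapped in both bone subsets.

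Ccl2 (ENSMUSG00000035385.5; mm10 chromosome 11, 82035571 to 82037453, plus strand), which recruits monocytes, passed the test in none of the 3 subsets as counted. Marrow libraries held 5.18, 8.62 and 4.55 CPM in the knockout and 5.95, 10.6 and 11.9 CPM in the control (log2 -0.61, 95% interval -1.25 to 0.02). GFP-negative bone held 8.94, 19.2 and 11.8 CPM in the knockout and 12.7, 9.39 and 9.64 CPM in the control (0.34, interval -0.28 to 0.96), and GFP-positive bone held 0.87, 1.89 and 1.58 CPM in the knockout and 2.13, 1.97 and 1.40 CPM in the control (-0.38, interval -1.47 to 0.71). The genotypes overlapped in each subset. Ccl2 is the shortest member, and among the 500 genes nearest to it in length the median log2 fold change was -0.50, -0.62 and -0.48 in marrow, GFP-negative bone and GFP-positive bone. After length correction it was called higher in GFP-negative bone (1.06 ± 0.32, edgeR adjusted p = 0.0137). Without the first control or the second knockout marrow library it was called lower in marrow (log2 -0.87 and -0.94, edgeR adjusted p = 0.0255 and 0.0289).

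Sema3a (ENSMUSG00000028883.17; mm10 chromosome 5, 13125414 to 13602565, plus strand), the restraining signal, was higher in both bone subsets of the knockout. In GFP-negative bone the knockout libraries held 31.1, 33.9 and 34.2 CPM, against 22.5, 13.9 and 12.8 CPM in the control libraries, 2.02-fold higher (log2 1.02 ± 0.20, edgeR adjusted p = 3.69e-04). In GFP-positive bone they held 4.25, 3.73 and 1.80 CPM, against 0.91, 1.14 and 1.20 CPM in the control libraries, 3.14-fold higher (1.65 ± 0.36, edgeR adjusted p = 8.40e-04). Neither pair of groups overlapped in CPM. In GFP-positive bone the gene was sparse, with raw counts of 93, 77 and 25 in the knockout libraries and 24, 29 and 25 in the control libraries. In marrow the libraries held 9.88, 11.8 and 13.3 CPM in the knockout and 12.6, 11.8 and 9.19 CPM in the control, overlapping, with a log2 difference of 0.05 (95% interval -0.40 to 0.49). These values depend on how length is treated. Among the 500 genes nearest to Sema3a in length the median log2 fold change was 0.70 in marrow, 0.82 in GFP-negative bone and 1.12 in GFP-positive bone, beside 0.05, 1.02 and 1.65 for Sema3a itself. After length correction the bone values were 0.24 ± 0.20 and 0.67 ± 0.37 (edgeR adjusted p = 0.373 and 0.155), and marrow turned to a called fall, at -0.69 ± 0.21 (edgeR adjusted p = 0.0137).

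The difference between subsets in the Sema3a effect moved less with the length correction. It was 1.61 ± 0.42 on the log2 scale for GFP-positive bone minus marrow (edgeR adjusted p = 0.0123) and 1.36 ± 0.43 after length correction (edgeR adjusted p = 0.0323), and it was lost with library totals alone (1.09, edgeR adjusted p = 0.0629). For GFP-negative bone minus marrow it was 0.97 ± 0.29 (edgeR adjusted p = 0.0473) and 0.93 ± 0.29 after correction (edgeR adjusted p = 0.0584), and 9 of the 12 fits that left out 1 library lost that call. Over the 7 members, 2 differences were called for GFP-positive bone minus marrow (18.4% of all genes tested, 10.8% higher and 7.6% lower), 1 for GFP-negative bone minus marrow (7.79% of all genes, 4.49% higher and 3.31% lower) and 0 for GFP-positive minus GFP-negative bone (6.08% of all genes, 4.98% higher and 1.11% lower). In the last of these no member had an unadjusted p under 0.05, the lowest being 0.0571 for Tnfsf11, and DESeq2 also called 0. Same-number libraries of marrow and GFP-negative bone deviated together in both genotypes, and with the number as a block 3 members were called for that pair: Sema3a (0.98), Tnfrsf11b (1.03) and Tnfsf11 (0.78), with edgeR adjusted p of 0.0287, 0.0187 and 0.0315. Without the block, Tnfrsf11b (1.03 ± 0.41) and Tnfsf11 (0.80 ± 0.33) were not called for that pair (edgeR adjusted p = 0.157 and 0.169).

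The receptors for these signals were measured in the same cells. Of 20 receptor and coreceptor genes tested, 13 were higher and 0 lower in knockout marrow, 13 higher and 1 lower in GFP-negative bone, and 14 higher and 1 lower in GFP-positive bone, where 23.1%, 21.5% and 26% of all genes tested were higher. These are long genes, with a median of 6505.5 bases, and after length correction 10, 10 and 12 were higher and 1, 1 and 1 lower, where 21.7%, 20.4% and 24.2% of all genes were higher. Lgr4, a second receptor for RANKL, was at 66.0 ± 8.91 CPM in knockout and 22.1 ± 3.18 CPM in control marrow, and its length-corrected log2 fold change was 1.42 ± 0.14. Il6st, the shared signalling chain of IL-6 family receptors, was at 182 ± 29.6 and 32.2 ± 1.84 CPM in knockout and control GFP-positive bone (length-corrected log2 1.72 ± 0.14), and Il6ra, the IL-6 receptor, at 36 ± 5 CPM in the knockout and 7.38 ± 1.68 CPM in the control (1.76 ± 0.23). Plxna2, a plexin of the family through which class 3 semaphorins signal, was at 124 ± 22.9 and 24.7 ± 4.82 CPM in knockout and control marrow (1.5 ± 0.2). Csf1r, the receptor of CSF-1 and IL-34, averaged 0.31 ± 0.08 CPM in knockout and 0.50 ± 0.25 CPM in control marrow.

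Other ligands that act on osteoclasts or their precursors were called lower more often than higher in marrow, and higher more often than lower in both bone subsets. Of 26 tested, 5 were higher and 9 lower in knockout marrow, 8 higher and 3 lower in GFP-negative bone, and 12 higher and 2 lower in GFP-positive bone. That is 53.8%, 42.3% and 53.8% of the list called, near the 47.9%, 47.1% and 51.3% of all genes. Of all genes, 23.1%, 21.5% and 26% were higher and 24.8%, 25.7% and 25.3% lower. The median log2 fold changes of the list were -0.34, 0.23 and 0.62. After length correction 5 of the list were higher and 8 lower in marrow, 10 and 0 in GFP-negative bone, and 11 and 1 in GFP-positive bone. With that correction 21.7%, 20.4% and 24.2% of all genes were higher. The share of all genes lower after correction is not given. The corrected lower counts of this list, of the receptors and of the genes upstream of Tnfsf11 therefore have no background beside them. Il11, an IL-6 family cytokine, was at 48.0 ± 24.0 CPM in knockout and 2.11 ± 0.46 CPM in control GFP-positive bone (log2 4.48 ± 0.44, edgeR adjusted p = 8.64e-08; 4.97 length-corrected). Angptl4, a secreted regulator of lipoprotein lipase, was higher in all 3 subsets, at 1300 ± 254 and 356 ± 50.1 CPM in knockout and control marrow (1.87 ± 0.16; 2.08 length-corrected). Cxcl12, a chemokine of marrow stroma, was at 3130 ± 155 and 1140 ± 209 CPM in knockout and control GFP-negative bone (1.45 ± 0.17; 1.04 length-corrected). Postn, the matrix protein periostin, was lower in marrow, at 65.7 ± 4.89 CPM in the knockout and 190 ± 33.8 CPM in the control (-1.53 ± 0.19; -1.97 length-corrected).

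Of 26 genes upstream of Tnfsf11, which include Pth1r, 18 were higher and 2 lower in marrow, 21 and 1 in GFP-negative bone, and 20 and 1 in GFP-positive bone, where 23.1%, 21.5% and 26% of all genes were higher. After length correction 13 were higher and 3 lower in marrow, 17 and 1 in GFP-negative bone, and 16 and 2 in GFP-positive bone, where 21.7%, 20.4% and 24.2% of all genes were higher. The list was not split by whether a gene raises or lowers Tnfsf11, so these counts give no direction of input to it. Sik1 and Sik2, kinases that parathyroid hormone signalling is known to inhibit, were at 63.9 ± 17.9 and 29.7 ± 4.58 CPM in knockout marrow, against 7.72 ± 3.32 and 5.19 ± 0.71 CPM in control marrow (log2 3.07 ± 0.29 and 2.52 ± 0.22). Vdr, the vitamin D receptor, was at 284 ± 53.4 CPM in knockout and 92.6 ± 3.70 CPM in control GFP-negative bone (1.62 ± 0.11, edgeR adjusted p = 5.70e-09), and was also called higher in GFP-positive bone (1.12 ± 0.11, edgeR adjusted p = 1.95e-07) and marrow (0.29 ± 0.11, edgeR adjusted p = 0.0372). Stat3, a transducer of IL-6 family signals, was at 378 ± 26.3 and 102 ± 2.59 CPM in knockout and control GFP-positive bone (1.89 ± 0.09). Length-corrected values were 3.07 for Sik1 and 2.02 for Sik2 in marrow, and 1.26 for Stat3 in GFP-positive bone. For Vdr they were 1.48 in GFP-negative and 0.94 in GFP-positive bone, and its marrow value is given as counted only.

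The remaining members had their own nearest patterns over the 18 libraries. Tnfsf11 was most like Mme (r = 0.983), a cell-surface peptidase, Selenop (0.983) and C1qtnf7 (0.982). Tnfrsf11b was most like the amino acid transporter gene Slc7a5 (0.952), Cd109 (0.941) and Tnfrsf23 (0.94). Ccl2 was most like Stk17b (0.963), Cd59a (0.961) and Sspn (0.955), and Sema3a was most like Elmo1 (0.975) and Cyfip2 (0.972). Il6 had the loosest matches, with C1qtnf1 at 0.886, Col14a1 at 0.864 and Mfap5 at 0.861. Il6 and Csf1 correlated at -0.03, and Ccl2 and Sema3a at 0.87.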

How the data were processed

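RNA was sequenced from 18 libraries in 6 groups of 3, made from sorted cells with SMART-Seq v4 low-input chemistry, per the labels. The deposited values are raw read counts per gene with the gene's merged exon length, which the file headers credit to featureCounts as run by the authors. Build mm10, STAR, featureCounts and DESeq2 are named in the submitters' processing notes, without versions. Use of strand and the treatment of reads with several matches are not given in the sources used here. Of 54446 gene IDs, 54409 matched a symbol. Groups were taken from the titles. No libraries were merged, since the chi-square divided by its degrees of freedom was 14.9 to 55.9 within groups.

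All 18 libraries were fitted with 1 mean per group in edgeR 4.0.16 (R 4.3.3; filterByExpr by group, TMM, robust quasi-likelihood F-test, two-sided, Benjamini-Hochberg over 15516 genes, threshold 0.05). The SE is the log2 fold change divided by the square root of F. CPM is the count over the TMM-scaled library total, except in marker sums, which are over the unscaled library total. TPM was computed from the deposited counts and lengths. The members and lists were chosen with earlier results of these data known. Named genes are all members, up to 4 called genes with the smallest p per pathway list (at least 1 CPM on average where higher), and the 3 genes most correlated with each member, among genes with a mean of at least 5 CPM, of which 1 is not reported here. Other genes, such as Csf1r, were named after their values were seen. The length correction takes the lowess trend of each library, set against the mean of its subset, on gene length (span 0.3), and removes it through offsets. Fits were tested on simulated data in which few genes changed apart from an added length trend. That test does not cover change beyond length in as large a share of genes as was called here.

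Whether same-number libraries deviate together was checked. Between knockout and control, 1 of 9 correlations exceeded 0.1 (-0.092 to 0.172), and these were not paired. Between subsets within a genotype 16 of 18 did (0.072 to 0.297). In controls every pair did so for GFP-negative bone and marrow alone. In knockouts every pair did so for all combinations of subsets (0.134 to 0.297). The evidence for pairing comes from the data and not from the labels. The main fits leave pairing out, and the replicate block, with the library number in the fit, is the alternative that includes it. Alternatives were other scaling (RLE, library totals), no filter, DESeq2 1.42.0, only the libraries compared, the length correction, the replicate block and leaving out each library. Counts of list genes with the length correction were added after the data were seen.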

Additional observations from a re-analysis of the deposited data

Results flagged for a closer look

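In the main fit, which leaves out the replicate block, the knockout effect differed between subsets by an interaction test for 2 members. With the block, Tnfsf11 was also called for GFP-negative bone minus marrow (edgeR adjusted p = 0.0315). For Tnfrsf11b, GFP-positive bone minus marrow was 1.54 ± 0.41 on the log2 scale (edgeR adjusted p = 0.0155), with separate effects of 0.74 in GFP-positive bone and -0.80 in marrow. The third knockout library of GFP-positive bone had 174.6 CPM, more than the others in its group, and without it the difference was 0.98 (edgeR adjusted p = 0.00761).

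For Sema3a, GFP-positive bone minus marrow was 1.61 ± 0.42 (edgeR adjusted p = 0.0123) and GFP-negative bone minus marrow was 0.97 ± 0.29 (edgeR adjusted p = 0.0473). The separate effects were 1.65 in GFP-positive bone, 1.02 in GFP-negative bone and 0.05 in marrow. Genes of like length had medians of 1.12, 0.82 and 0.70 in the same order, and the part of length in the difference was not tested beyond the corrected values given with the result. Groups of 3 libraries are too small for the test of single outlying samples, and no data lie outside the main measurement.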

How the results depend on the processing

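With library totals alone in place of TMM, 2 members were called in marrow, 2 in GFP-positive bone, 0 for GFP-negative bone minus marrow and 1 for GFP-positive bone minus marrow, the last being Csf1. That scaling moved the median gene's knockout effect to 0.08 in marrow, -0.34 in GFP-positive bone and -0.30 in GFP-negative bone, from -0.04, 0.03 and -0.07. It made 59.6%, 30.9% and 30.8% of the calls higher, and gave 3735 and 5676 interaction calls over all genes against 1209 and 2853. Without the count filter, 2 members were called in marrow and 1 for GFP-positive bone minus marrow. For GFP-negative bone minus marrow, 0 members were called with the length correction, 3 with the replicate block, 2 with only the libraries compared and 2 with DESeq2, against 1. The replicate block changed 2 other member calls: Sema3a between GFP-negative bone and marrow (0.53, edgeR adjusted p = 0.0393) and Il6 between GFP-positive bone and marrow (-1.07, edgeR adjusted p = 0.0823). For the ratio of Tnfsf11 to Tnfrsf11b in marrow, pairing by library number cannot change the difference of 0.97 on the log2 scale. The exact sign-flip test gave p = 0.25, the smallest that 3 pairs can give. Leaving out 1 library gave 2 to 4 members called in marrow, 2 to 4 in GFP-positive bone and 0 to 1 for GFP-negative bone minus marrow. Sema3a in marrow turned to -0.69 with the length correction and to -0.67 with the replicate block and the length correction together (edgeR adjusted p = 0.0158). The cause of these changes was not tested. With 3 libraries a group, exact tests cannot pass 0.05. Members under 5 CPM, such as Il34, Ccl2 and Sema3a in GFP-positive bone, rest on few reads. Genotype and gene length trend cannot be told apart in these libraries.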
